A study of Mus musculus with 12 samples.

Results

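The genes of major histocompatibility complex (MHC) class I antigen presentation and of the immunoproteasome were followed in the lungs and livers of tumor-bearing and control mice. The 10 members were H2-K1, H2-D1, B2m, Tap1, Tap2, Tapbp, Psmb8, Psmb9, Psmb10 and Psme1, out of 12393 genes that the array annotation pairs with a probe set of 1 symbol. They were found by gene symbol. Of the 22626 probe sets of the array, 26 carried the symbol of a member alone and 3 carried it together with other symbols, and those 3 were not assigned to a gene. For the tests, a gene was represented by its brightest probe set on average over all 12 arrays. All 10 members read above 4 (log2) on at least 3 arrays of each comparison and passed the filter on low values in both tissues.

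All mice were female and of the nude NCR strain. The control group received phosphate-buffered saline (PBS), and the tumor-bearing group was engrafted orthotopically with 4T1, a metastatic mammary carcinoma line of the mouse whose usual targets include lung and liver. Lung and liver were taken on day 7 from 3 mice of each group, which gave 4 groups of 3 arrays and 12 Affymetrix arrays in all, and the tissues of tumor-bearing mice are labelled as pre-metastatic. Nude mice have no working thymus and few mature T cells, so the cells that read most class I complexes are scarce in this host, while natural killer cells remain. Values are log2 expression values that the authors made with GCRMA, and a difference of 1 is a doubling. The number of arrays limits the precision.

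MHC class I molecules show peptides from inside the cell to CD8 T cells and are ligands for receptors of natural killer cells. The peptides are cut by the proteasome, whose catalytic subunits are exchanged for Psmb8, Psmb9 and Psmb10 in immune cells and under interferon. They are carried into the endoplasmic reticulum by the transporter Tap1-Tap2 and loaded, with tapasin (Tapbp) as a bridge, onto a heavy chain (H2-K1 or H2-D1) paired with beta-2-microglobulin (B2m). Interferon gamma induces most of these genes together, and lung and liver parenchyma both carry class I on their cells.

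Of the members, 7 lie on chromosome 17 in the GRCm38.p6 assembly. Psmb9 (34182030 to 34187330), Tap1 (34187556 to 34197225), Psmb8 (34198195 to 34201454) and Tap2 (34204479 to 34216321) fill 34.3 kilobases, with Tapbp (33919478 to 33929290) and H2-K1 (33996012 to 34000619) on one side and H2-D1 (35263094 to 35267497) on the other. B2m is on chromosome 2 (122147687 to 122153082), Psmb10 on chromosome 8 and Psme1 on chromosome 14. Psmb9 and Tap1 are transcribed away from each other with 225 bases between their starts. The sequences before the starts of the heavy chains, of B2m, of Tap1 with Psmb9 and of Psmb8 are shown because these are the genes with the members' non-overlapping or largest differences and because 2 of them share 1 interval. They are RefSeq reference sequences of GRCm38.p6, not of the NCR strain, written 5′ to 3′ in the direction of the gene, and 9 of the 10 members had an entry.

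The blocks of H2-K1 (chr17:34000377-34000462, minus strand) and H2-D1 (chr17:35262919-35263004, plus strand) agree at 80 of 86 bases (93.0%). Capitals mark matches to the motifs searched on both strands, GAAA-NN-GAAA and GAANNGAAA (cores of the interferon-stimulated response element), TTCNNNGAA (the gamma-activated site), GGG-NANNN-CC (an NF-kappa-B type site) and TGACG (the core of the X2 box), with N for any base.
H2-K1: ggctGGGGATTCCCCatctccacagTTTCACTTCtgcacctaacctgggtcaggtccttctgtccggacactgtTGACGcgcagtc
H2-D1: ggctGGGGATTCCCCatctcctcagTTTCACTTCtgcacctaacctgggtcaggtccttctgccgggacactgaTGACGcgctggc
B2m: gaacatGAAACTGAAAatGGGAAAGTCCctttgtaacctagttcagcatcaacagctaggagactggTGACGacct
Tap1: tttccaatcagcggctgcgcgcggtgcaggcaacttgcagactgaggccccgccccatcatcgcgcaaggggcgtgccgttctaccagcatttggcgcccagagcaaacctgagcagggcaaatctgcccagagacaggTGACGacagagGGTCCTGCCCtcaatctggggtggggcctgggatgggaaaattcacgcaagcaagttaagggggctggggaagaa
Psmb8: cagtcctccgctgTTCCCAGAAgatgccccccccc
The B2m block is chr2:122147542-122147617 (plus strand) and the Psmb8 block chr17:34198085-34198119 (plus strand). The Tap1 line is the whole interval between Psmb9 and Tap1, chr17:34187331-34187555, on the strand of Tap1. The motifs were chosen after the sequences were seen, and a match is a run of letters, not a shown binding site. Matches were counted in windows from 250 bases before to 50 bases after each start, of which the table held 32851 for 27025 genes. GAAA-NN-GAAA was in the windows of B2m and Psme1 and of 3.99% of all genes. GAANNGAAA was in those of H2-K1, H2-D1 and Psme1 (8.68% of all genes) and TTCNNNGAA in that of Psmb8 alone among the members (9.55%). GGG-NANNN-CC was found in 6 of the 9 members (19.3% of all genes) and TGACG in 5 (23%), namely B2m, H2-K1, H2-D1, Tap1 and Psmb9. Some matches overlap, as where GGG-NANNN-CC is found on both strands of the heavy-chain run. The matches of Tap1 and Psmb9 are the same bases of their shared interval, and the blocks of H2-K1 and H2-D1 are nearly alike. The members with these motifs are therefore not separate cases to set against the shares of all genes.

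The arrays carried the transcripts of their tissues, but 1 lung array of each group held more hepatocyte RNA than the others. The summed level of 5 hepatocyte markers was 18.10 to 18.26 (log2) in liver. Among lung arrays, tumor replicate 1 (14.39) and control replicate 3 (14.65) had the highest values of the albumin gene Alb, which lay between 8.96 and 11.08 on the rest. Cardiac muscle transcripts also varied between lung arrays, with a summed level of 4 markers from 11.35 to 13.12 in tumor-bearing and from 10.41 (replicate 1) to 14.06 (replicate 3) in control lungs. Lung control replicate 3, highest in Alb and in these transcripts, was also the lowest lung array in 9 of the 10 members, and the part of these tissues in the members' values was not tested. Lung results were therefore also computed without both arrays rich in hepatocyte RNA. A whole tissue was measured, so more cells of a type and more RNA per cell cannot be told apart.

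The comparison of tumor-bearing with control mice asked which genes differ in the organs before metastases are seen. In lung all 10 members had a higher mean in tumor-bearing mice, where 47% of the 7907 genes tested did, and in liver 9 did, where 39.6% of 7712 genes did. None passed the test in either tissue (limma adjusted p over all genes, threshold 0.05). In lung 0.734% of all genes passed (49 higher, 9 lower) and in liver 1.87% (49 higher, 95 lower). The liver split moved to 48 higher and 46 lower after a further quantile normalization. At an unadjusted p under 0.05, 2 members were higher in lung, Psmb8 and Psmb9, and 2 in liver, H2-K1 and Tap1, against 6.72% and 8.17% of all genes. The median change of the members was 0.30 in lung and 0.24 in liver, beside -0.01 and -0.07 for all genes. Leaving out any 1 array left 0 to 14 genes called in lung and 0 or 1 in liver, and no member.

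**Figure D1:**
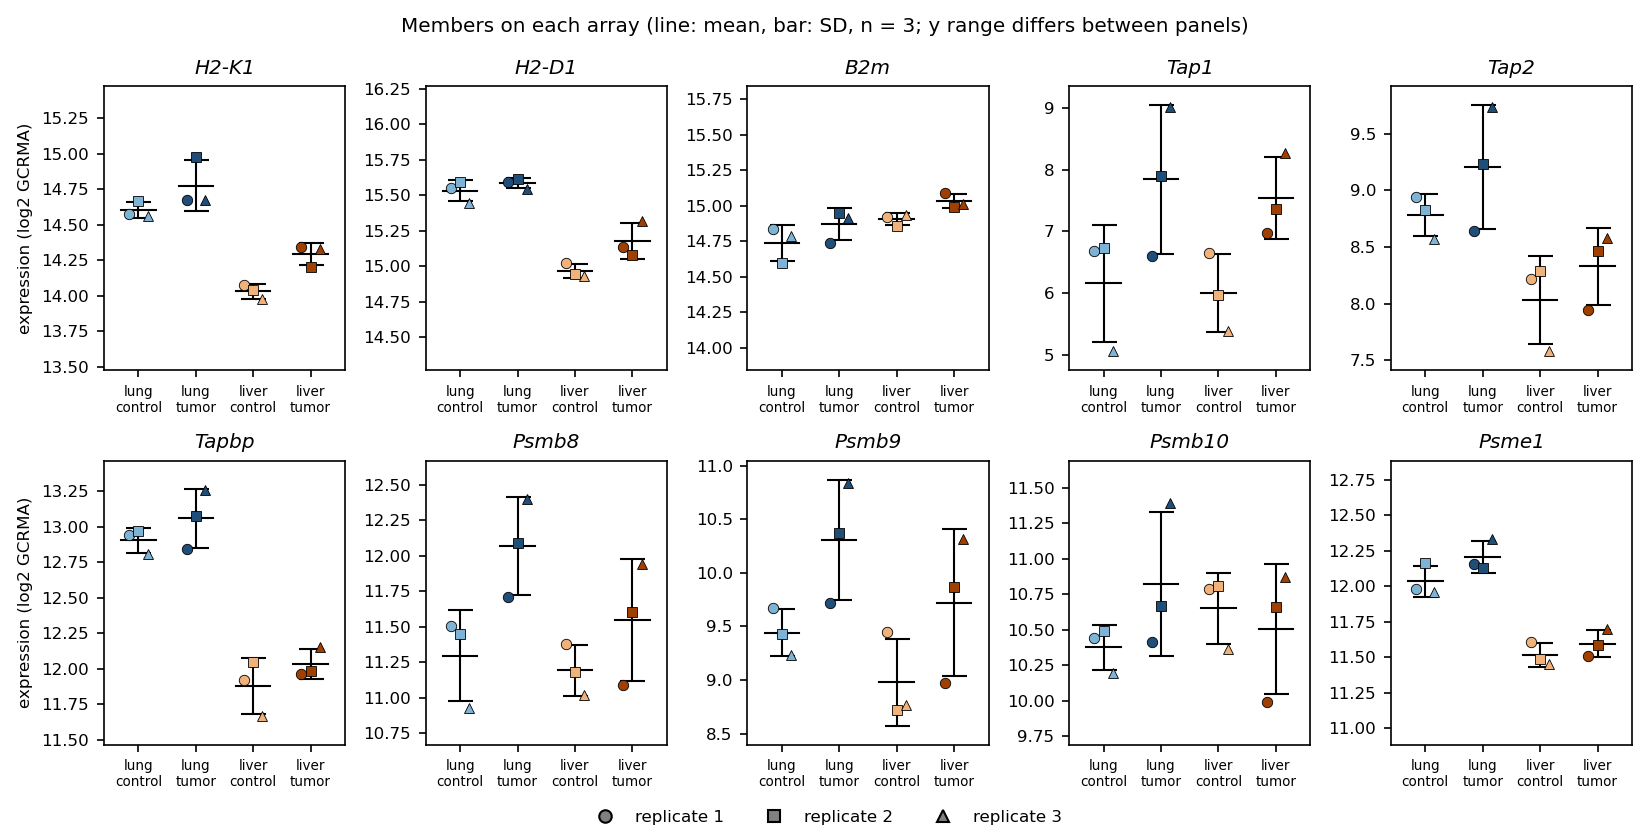
Expression of the 10 members (y axis, log2 GCRMA values, range differing between panels) on each of the 12 arrays, by tissue and treatment (x axis), with symbols for replicate number, a line at the group mean and bars of 1 SD (n = 3). On lung tumor replicate 3, Tap1, Psmb8 and Psmb9 stand highest of the lung arrays, at 9.01, 12.40 and 10.84.

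For the brightest probe sets of the heavy chains and of B2m, the groups differed by 0.26 or less in the mean. H2-K1, which codes for a classical heavy chain, read 14.67, 14.98 and 14.67 on the lung arrays of tumor-bearing mice and 14.57, 14.67 and 14.56 on those of controls. The groups met at 14.67 without crossing, and the difference of 0.17 ± 0.11 (log2, SE, n = 3 each) did not pass (limma adjusted p = 0.593). In liver H2-K1 read 14.35, 14.20 and 14.33 against 14.08, 14.04 and 13.97. All 3 tumor-bearing livers lay above all 3 controls, by 0.26 ± 0.07 in the mean, or 1.20-fold, with a limma adjusted p of 0.111. Groups that did not overlap, with the tumor-bearing arrays higher, were found for 10.4% of all genes in liver and 8.99% in lung.

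H2-D1, the second classical heavy chain on the array, read 15.59, 15.61 and 15.55 in lungs of tumor-bearing mice and 15.55, 15.59 and 15.45 in control lungs. The lung groups overlapped (difference 0.05 ± 0.08, adjusted p = 0.833). In liver it read 15.14, 15.08 and 15.32 against 15.02, 14.95 and 14.93, without overlap, a difference of 0.21 ± 0.09 (adjusted p = 0.201). B2m, the light chain that every classical heavy chain needs for transport to the surface, read 14.74, 14.95 and 14.92 against 14.83, 14.60 and 14.79 in lung. Its liver values were 15.09, 14.99 and 15.01 against 14.92, 14.85 and 14.93. B2m was 0.13 higher in the mean in both tissues (SE 0.11 in lung and 0.07 in liver), and its groups overlapped in lung and not in liver (adjusted p = 0.675 and 0.285). Its other probe set gave 0.13 in lung and 0.12 in liver.

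The heavy-chain genes were each read by several probe sets, and these gave one direction for the tumor and several for the tissue. H2-K1 had 4 probe sets and H2-D1 had 9, of which 3 (1452544_x_at, 1425614_x_at and 1451934_at) never read above 4. The suffix x marks probe sets whose probes can also match other transcripts. Over the 10 heavy-chain probe sets that did, the change in tumor-bearing mice ran from 0.05 to 0.29 in lung and from 0.05 to 0.77 in liver, and it was above 0 in each. These are not 10 separate readings, since most carry that suffix and may read the same transcripts. One of them, 1450170_x_at, stood at a single value of 9.21 on all 3 liver controls and on some other arrays. The highest liver value belonged to 1426324_at of H2-D1, which read 11.52, 11.68 and 11.94 against 11.26, 10.91 and 10.65 in controls. Those groups did not overlap, and the difference of 0.77 ± 0.19 did not pass over all probe sets (limma adjusted p = 0.0878). In lung the same probe set read 13.23, 13.79 and 13.57 against 13.61, 13.50 and 13.13, a difference of 0.11 ± 0.20 (adjusted p = 0.847).

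**Figure D2:**
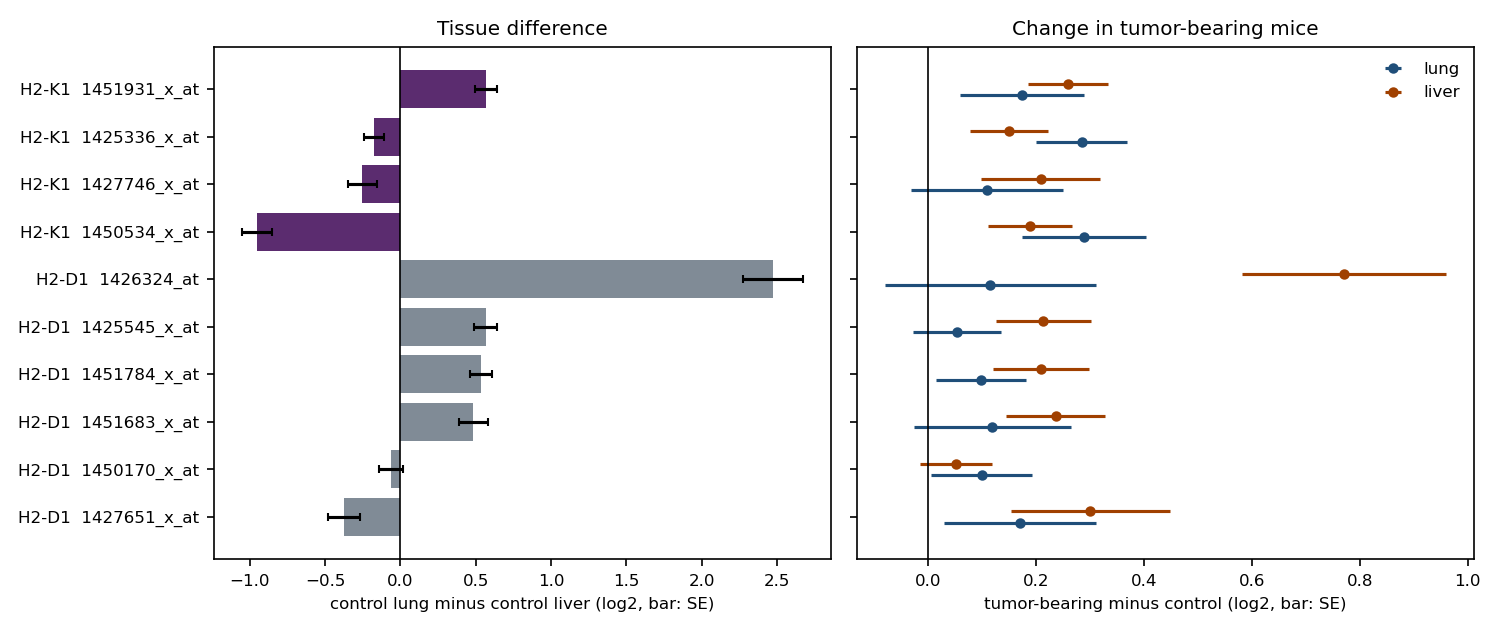
The 10 heavy-chain probe sets that read above 4 (y axis), with control lung minus control liver (left, bars from 0) and tumor-bearing minus control in each tissue (right), in log2 units with bars of 1 SE (n = 3 against 3). The probe sets of H2-K1 run from -0.95 to 0.57 in the left panel, whereas the points of the right panel lie above 0.

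Among the transport and loading genes, none of which passed, Tap1, a subunit of the peptide transporter, had the largest difference of all members in both tissues. In lung it read 6.61, 7.90 and 9.01 in tumor-bearing mice and 6.68, 6.73 and 5.06 in controls, and in liver 6.97, 7.37 and 8.27 against 6.65, 5.97 and 5.39. The liver groups did not overlap, while in lung tumor replicate 1 lay below 2 of the controls. The mean of Tap1 was higher by 1.68 ± 0.73 in lung, 3.21-fold (95% interval -0.10 to 3.47 on the log2 scale, limma adjusted p = 0.409). In liver it was higher by 1.53 ± 0.45, 2.90-fold (0.42 to 2.65, adjusted p = 0.112). These values come from 1 probe set, 1416016_at, and the other 3 of Tap1 stood at the lowest value of the files, 2.04, on all 12 arrays.

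Tap2, the partner of Tap1, read 8.64, 9.23 and 9.74 in lungs of tumor-bearing mice against 8.94, 8.83 and 8.57, and 7.94, 8.47 and 8.58 against 8.22, 8.29 and 7.58 in liver. Replicate 1 of the tumor-bearing mice fell inside the control range in both tissues. The differences of 0.42 ± 0.28 and 0.30 ± 0.26 did not pass (adjusted p = 0.595 and 0.497). Tapbp, which holds the empty heavy chain at the transporter, read 12.84, 13.08 and 13.26 against 12.94, 12.97 and 12.81 in lung and 11.96, 11.99 and 12.16 against 11.92, 12.05 and 11.66 in liver. Both pairs of groups overlapped (0.15 ± 0.13, adjusted p = 0.678, and 0.16 ± 0.12, adjusted p = 0.455). Its other probe set, 1450378_at, gave -0.13 in lung and 0.39 in liver, so the direction of Tapbp in lung depended on the probe set.

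Among the immunoproteasome subunits, Psmb8 and Psmb9 were the members with the smallest p in lung. Psmb8, which takes the place of Psmb5, read 11.71, 12.09 and 12.40 in lungs of tumor-bearing mice and 11.51, 11.45 and 10.92 in control lungs. The groups did not overlap, and the mean was higher by 0.77 ± 0.23, 1.71-fold (95% interval 0.20 to 1.35, limma adjusted p = 0.252). In liver Psmb8 read 11.09, 11.61 and 11.94 against 11.38, 11.18 and 11.02, overlapping, with a difference of 0.35 ± 0.23 (adjusted p = 0.385).

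Psmb9, which takes the place of Psmb6, read 9.72, 10.37 and 10.84 against 9.67, 9.43 and 9.23 in lung. The lowest lung tumor value was just above the highest control, and the mean was higher by 0.87 ± 0.29, 1.82-fold (95% interval 0.14 to 1.59, limma adjusted p = 0.298). In liver it read 8.97, 9.87 and 10.32 against 9.45, 8.72 and 8.77, overlapping, with a difference of 0.74 ± 0.39 (adjusted p = 0.287). Psmb10, which takes the place of Psmb7, read 10.41, 10.66 and 11.39 against 10.44, 10.49 and 10.19 in lung and 9.99, 10.66 and 10.87 against 10.78, 10.81 and 10.36 in liver. Its difference was 0.45 ± 0.26 in lung and -0.15 ± 0.26 in liver (adjusted p = 0.547 and 0.749). The groups overlapped in both tissues, and without liver tumor replicate 1 the liver difference of Psmb10 became 0.11.

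Psme1, a subunit of the PA28 activator that caps the proteasome, read 12.15, 12.13 and 12.33 against 11.98, 12.16 and 11.96 in lung and 11.51, 11.58 and 11.70 against 11.61, 11.49 and 11.45 in liver. The groups overlapped in both, with differences of 0.17 ± 0.10 and 0.08 ± 0.08 (adjusted p = 0.557 and 0.585).

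**Figure D3:**
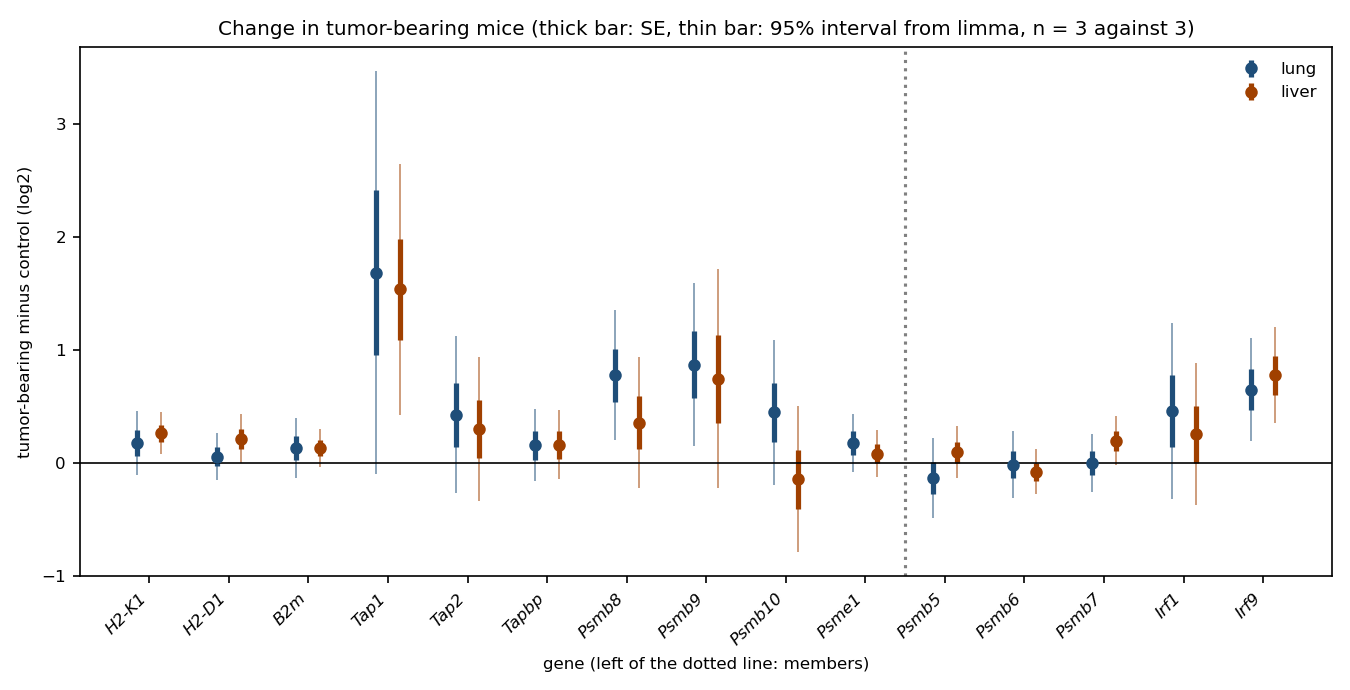
Tumor-bearing minus control (y axis, log2) in lung and liver for the 10 members and, right of the dotted line, for the standard catalytic subunits and for Irf1 and Irf9 (x axis). Points are means, thick bars 1 SE and thin bars 95% intervals from limma (n = 3 against 3). Tap1 stands highest at 1.68 in lung and 1.53 in liver, with intervals of which the lung one includes 0.

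None of the standard catalytic subunits passed in either comparison. Psmb5, Psmb6 and Psmb7 differed by -0.13 ± 0.14, -0.02 ± 0.12 and -0.01 ± 0.11 in lung and by 0.09 ± 0.09, -0.08 ± 0.08 and 0.19 ± 0.09 in liver, with limma adjusted p from 0.226 to 0.989. Each immunoproteasome subunit was then set against the subunit it replaces on the same array, a ratio chosen after the values were seen. In lung the log2 ratio was higher in tumor-bearing mice by 0.91 for Psmb8 over Psmb5, 0.89 for Psmb9 over Psmb6 and 0.45 for Psmb10 over Psmb7. In liver the differences were 0.26, 0.82 and -0.34. The groups overlapped in all 6 comparisons, with exact two-sided permutation p from 0.2 to 0.4 (0.36 to 0.4 after Benjamini-Hochberg adjustment over the 6), where 3 against 3 cannot go below 0.1.

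Whether the change differed between lung and liver was tested as an interaction over all 12 arrays. No member passed, none had an unadjusted p under 0.05, while 1.55% of 8433 genes passed and 17.2% had such a p. This holds for the brightest probe sets. Another probe set of H2-D1, 1426324_at, gave -0.66 ± 0.29, with liver the higher (limma unadjusted p = 0.0452, adjusted p = 0.273 over all probe sets). The difference was 0.59 ± 0.39 for Psmb10 (limma adjusted p = 0.482) and 0.42 ± 0.35 for Psmb8 (adjusted p = 0.587), with lung the higher. For Tap1 it was 0.15 ± 0.92 (95% interval -1.91 to 2.20) and for Psmb9 0.12 ± 0.52, and both changed sign when single arrays were left out.

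Between the control tissues, 5 members passed as higher in lung and none as lower, beside 45.6% and 35.5% of 8270 genes, so a call in either direction was no more frequent among the members than among all genes. Tapbp was 1.03 ± 0.12 higher in lung (2.04-fold, limma adjusted p = 0.000348), Tap2 0.75 ± 0.22 (adjusted p = 0.0186) and Psme1 0.52 ± 0.09 (adjusted p = 0.00231). H2-K1 was 0.57 ± 0.07 and H2-D1 0.57 ± 0.08 higher in lung (adjusted p = 0.000526 and 0.00066). Tap1 (0.16 ± 0.55), Psmb8 (0.10 ± 0.19), Psmb9 (0.46 ± 0.23), Psmb10 (-0.28 ± 0.16) and B2m (-0.16 ± 0.09) did not pass (adjusted p from 0.108 to 0.805). Psmb5, Psmb6 and Psmb7 went the other way, lower in lung by -0.40 ± 0.10, -0.57 ± 0.10 and -0.30 ± 0.09 (adjusted p = 0.0118, 0.0025 and 0.0181). A further quantile normalization moved the median of all genes from 0.18 to 0.04, turned B2m to 0.12 and Tap1 to -0.41, and ended the call of Psmb7. The call of Tap2 was lost without the filter on low values (adjusted p = 0.0560), without lung control replicate 1 (adjusted p = 0.0630) or replicate 2 (adjusted p = 0.0571), and that of Psmb7 without liver control replicate 3 (0.0551) or lung control replicate 1 (0.0563). Psmb9 passed without liver control replicate 1 (0.70, adjusted p = 0.0103) and Psmb10 without liver control replicate 3 (-0.42, adjusted p = 0.0256). With the replicate number as a block, Psmb9 and Psmb10 passed (adjusted p = 0.0304 and 0.0474) and Psmb7 did not (0.0564).

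The tissue difference of the heavy chains depended on the probe set. For H2-K1 it was 0.57, -0.18, -0.25 and -0.95 in the 4 probe sets, each with a limma adjusted p under 0.05 over all probe sets (0.000582, 0.0465, 0.0491 and 0.000235). For H2-D1 it ran from -0.37 (1427651_x_at) to 2.47 (1426324_at). No single direction between lung and liver can be given for either heavy chain.
The hepatocyte class I gene H2-Q10 lay between 14.63 and 14.84 in liver and at 2.55 to 2.91 on 4 lung arrays, but 7.33 on lung tumor replicate 1 and 8.26 on lung control replicate 3, the arrays with the most Alb. Its part in the other heavy-chain probe sets was not tested.

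Most members ordered the arrays of a group alike. In lung, tumor replicate 3 was the highest of the 6 arrays in 7 members, those of transport and peptide cutting, and tumor replicate 2 in the other 3, H2-K1, H2-D1 and B2m. Lung control replicate 3 was lowest in 9 members and control replicate 2 in B2m. In liver, tumor replicate 3 was highest in 8 members and tumor replicate 1 in B2m and H2-K1. Control replicate 3 was lowest in 7, control replicate 2 in 2 and tumor replicate 1 in Psmb10. Centred on the tissue mean, the mean of the 10 members was -0.12, 0.27 and 0.58 on the lung tumor arrays and -0.12, -0.14 and -0.48 on the lung controls. It was -0.09, 0.19 and 0.45 on the liver tumor arrays and 0.01, -0.16 and -0.39 on the liver controls. In each tissue 1 tumor-bearing array, replicate 1, lay within the control range. Without lung tumor replicate 1 and lung control replicate 3, the arrays rich in hepatocyte RNA, all 10 members again had higher means in tumor-bearing lungs, with a median change of 0.39, and neither a member nor any other gene passed. Without them Tap1 differed by 1.75, Psmb9 by 1.06 and Psmb8 by 0.77.

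**Figure D4:**
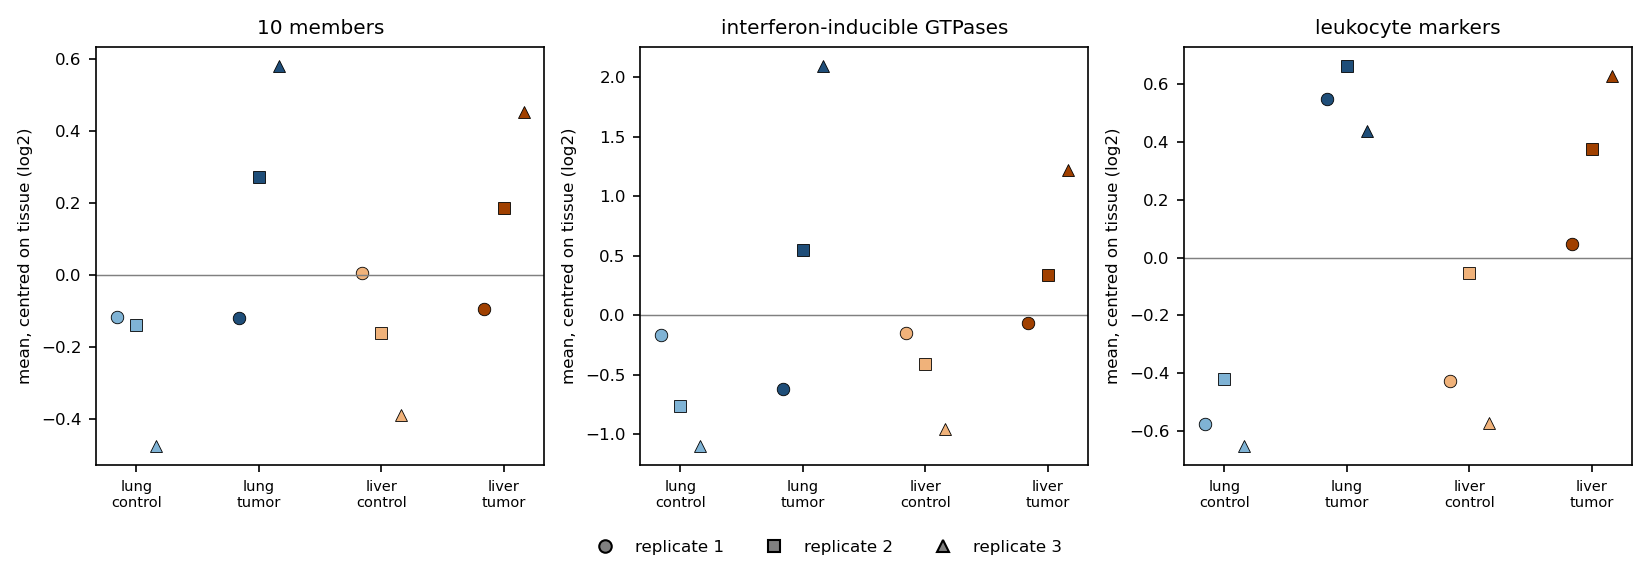
Mean of the 10 members, of 9 interferon-inducible GTPases and of 4 leukocyte markers (y axes, log2, centred on the mean of each tissue) on each array by group (x axis), with symbols for replicate number. In lungs of tumor-bearing mice the members run from -0.12 to 0.58 and the GTPases from -0.62 to 2.10, while the leukocyte markers stay between 0.44 and 0.66.

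The interferon-inducible GTPases, which defend cells against intracellular pathogens, had higher means in tumor-bearing mice for all 9 tested genes in both tissues, with median changes of 1.38 in lung and 0.81 in liver. Gbp6, a guanylate-binding protein gene, was the 1 that passed, in liver. It read 9.70, 10.18 and 10.58 in tumor-bearing livers and 8.64, 7.97 and 7.75 in controls, so it rose by 2.03 ± 0.32 (limma adjusted p = 0.0484). That call was lost when any 1 liver array was left out (adjusted p up to 0.156). In lung the largest differences were 1.95 ± 0.83 for Iigp1 and 1.56 ± 0.92 for Gbp6 (adjusted p = 0.4 and 0.546). Gbp6 read 6.91, 8.58 and 10.59 on the lung tumor arrays, which places the arrays in the order that Tap1 and Psmb9 gave. The mean of the 9 GTPases, centred on the tissue, was -0.62, 0.55 and 2.10 on the lung tumor arrays and -0.16, -0.76 and -1.10 on the controls. In liver it was -0.06, 0.34 and 1.22 against -0.15, -0.41 and -0.96. Their part in the members' values was not tested.

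Of the class I transactivators and interferon signalling genes, 14 of 17 had higher means in each tissue and none passed, with median changes of 0.21 and 0.25. Irf1, an interferon-induced activator of class I genes, differed by 0.45 ± 0.32 in lung and 0.25 ± 0.25 in liver (limma adjusted p = 0.612 and 0.567). Irf9, the DNA-binding part of the type I interferon response complex, differed by 0.65 ± 0.19 and 0.77 ± 0.17 (adjusted p = 0.225 and 0.0724). It passed in liver with all 12 arrays in 1 fit (adjusted p = 0.0366) and with trended, robust variances (0.0484). Ciita, the class II transactivator, differed by 1.29 ± 0.62 in lung (adjusted p = 0.455) and Irf2 by 0.63 ± 0.21 in liver (adjusted p = 0.135). Ifng, the gene of interferon gamma, stood at the lowest value of 2.04 on all 12 arrays. Nlrc5 and Psme2 were not analysed here.

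In the rest of the pathway no gene passed in a tumor comparison. Of the other heavy chains, 4 of 9 on the array were tested in lung and all 4 had higher means (3 after quantile normalization), led by H2-M3 with 0.51 ± 0.26 and H2-Q2 with 0.15 ± 0.14. In liver 2 of 3 did, H2-Bl at 0.44 ± 0.20 and H2-M3 at -0.31 ± 0.27 being farthest from 0. Of the class I-like molecules 1 of 5 in lung and 2 of 6 in liver had higher means, with Mr1, which presents vitamin metabolites, at -0.25 and 0.21, and Hfe, a regulator of iron uptake, at 0.24 and -0.16. Loading chaperones and trimming peptidases had higher means in 3 of 12 in lung and 5 of 12 in liver (7 after quantile normalization). Among them Hspa5, the chaperone BiP, differed by -0.46 ± 0.12 and Thop1 by -0.38 ± 0.24 in lung, and the peptidases Npepps by -0.44 ± 0.12 and Blmh by -0.37 ± 0.15 in liver. The limma adjusted p of those named with an SE ran from 0.104 to 0.701.

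Of the other 20S subunits and assembly factors, 13 of 16 had higher means in lung and 5 of 16 in liver, with medians of 0.08 and -0.06. Psmg4 (0.35) and Psmb4 (0.22) differed most in lung, and Psmg3 (-0.48) and Psmg2 (0.30) in liver. In the 19S regulatory particle, which unfolds ubiquitinated proteins, 6 of 20 had higher means in lung and 5 of 20 in liver, where quantile normalization gave 13. Psmd5 (-0.33) and Psmd7 (-0.24, but 0.22 as a median over probe sets) were farthest from 0 in lung and Psmd9 (-0.41) and Psmd13 (-0.26) in liver. Of the other activators and the inhibitor of the proteasome, Psmf1 differed by 0.33 and Psme3 by -0.21 in lung, and Psme4 by -0.33 and Psme3 by 0.11 in liver (-0.24 as a median over probe sets). None of these genes passed (limma).

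Tumor-bearing lungs also had higher levels of leukocyte transcripts. Ptprc (CD45), Coro1a and Cd52 rose by 1.02 ± 0.10, 1.29 ± 0.15 and 1.66 ± 0.15 (limma adjusted p = 0.0182, 0.0296 and 0.0139), and Laptm5 differed by 0.44 ± 0.10 (adjusted p = 0.161). Each of the 3 calls was lost in 9 of 15 alternatives, among them leaving out both arrays rich in hepatocyte RNA, where all 4 means stayed higher. The summed level of the 4 markers was 14.60 to 14.80 in tumor-bearing and 13.95 to 14.11 in control lungs. The summed level of the neutrophil markers was 16.47 to 16.67 against 12.63 to 14.45. Dendritic cell and MHC class II genes had higher means in 6 of 6 (1 passed, H2-Eb1, summed level 15.24 to 15.63 against 14.80 to 15.15). Of the neutrophil markers, Cxcr2, Mmp8, Ltf and Camp never read above 4 in control lungs. They met the filter through the tumor-bearing lungs alone, so a higher mean was fixed in advance for them and no count of neutrophil markers is given. S100a8, S100a9, Csf3r and Ngp, which read above 4 on every lung array, had higher means in tumor-bearing lungs. The call of H2-Eb1 was lost in 10 of 15 alternatives (adjusted p up to 0.326). Monocyte and macrophage markers had higher means in 5 of 6 and none passed, Csf1r differing by 0.39 ± 0.07 and Adgre1 by 0.46 ± 0.15 (adjusted p = 0.102 and 0.279), and their summed level overlapped (15.79 to 16.10 against 15.77 to 15.95). The 2 tested B cell genes were higher as well (1 passed, summed level 8.45 to 9.17 against 5.88 to 6.45). One of them, Ms4a1, read 2.91, 2.89 and 4.92 in control lungs and met the filter through the tumor-bearing lungs. Of 7 T and NK cell markers, Cd3e, Cd3d, Cd8a and Cd4 never read above 4 in lung. In liver the 4 leukocyte markers had higher means but none passed, and their summed level overlapped (11.22 to 11.55 against 11.02 to 11.55).
Centred on the tissue, the leukocyte markers averaged 0.55, 0.66 and 0.44 on lung tumor replicates 1, 2 and 3, where the members averaged -0.12, 0.27 and 0.58. The part of these cells in the members' values was not tested.

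The genes whose values ran closest to the mean of the members, both centred on the tissue over the 12 arrays, were Parp9, Parp12, C1ra, AW112010, Parp14 and Ewsr1. They were ranked among 7184 genes that passed the filter in both tissues, by root mean square differences of 0.116, 0.124, 0.144, 0.152, 0.163 and 0.165, where the members' mean itself had an SD of 0.318. Because they were picked by their values on these same arrays, their differences between groups are not independent of the ranking and only describe them. Parp9 read 9.19, 9.28 and 9.96 on the lung tumor arrays and 9.15, 8.99 and 8.65 on the controls, and 10.31, 10.37 and 10.78 against 10.29, 10.17 and 10.12 in liver. Its groups did not overlap in either tissue, and its differences of 0.54 ± 0.24 and 0.29 ± 0.14 did not pass (limma adjusted p = 0.427 and 0.264). The differences of the others ran from 0.28 (C1ra) to 0.82 (Parp14) in lung and from 0.06 (Ewsr1) to 0.52 (C1ra) in liver. None passed, but C1ra and AW112010 did in liver with trended, robust variances (adjusted p = 0.0395 and 0.0415), and that of Ewsr1 in liver turned to -0.02 or -0.03 without tumor or control replicate 3.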

How the data were processed

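The series holds 12 Affymetrix mouse arrays, 3 per group. Per the submitters' processing notes the authors used GCRMA, which gave the deposited log2 values, and limma, with versions and settings not given in the sources. Of 22626 probe sets, 20380 had 1 gene symbol, 691 several and 1555 were not listed. Each gene was read by its probe set with the highest mean. Genes that read above 4 on 3 or more arrays of a fit entered limma 3.58.1 (lmFit, eBayes) in R 4.3.3, with Benjamini-Hochberg adjustment over all genes and a threshold of 0.05. Groups were taken from the labels. Within a tissue only its 6 arrays entered the fit, and the difference between tissues used all 12. Single ratios were compared by an exact permutation test in SciPy 1.17.1. The limma fit was tested on simulated data.

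All members were described with every probe set. From each pathway list, genes past the threshold or otherwise the 2 with the largest change were named, with Psmb5, Psmb6, Psmb7, Psme2, Nlrc5, Irf1 and the 6 genes most like the members. Another gene of the rule is not reported here. The members, lists and rules were chosen with earlier results of these data known. The alternatives were no filter, other uses of the probe sets, quantile normalization, trended and robust eBayes, a joint fit of 12 arrays, a block for the replicate number, and leaving out both lung arrays rich in hepatocyte RNA or each array in turn. Leaving out genes with 1 value on every array, and recounting the lists, were added after seeing the data. The design gives lung and liver of the same mice, yet no label ties a replicate number to a mouse. Sequences and positions are from RefSeq (GRCm38.p6).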

Additional observations from a re-analysis of the deposited data

How the results depend on the processing

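No member was called in lung, in liver or in the difference between tissues under any alternative run, and 4 to 7 were called between control tissues. Of 636 recomputed member differences, 594 kept their direction and side of the threshold and 35 changed sign, whether or not they passed. Of those that kept their sign, 4 passed newly and 3 no longer passed (all Tap2 between control tissues). Changes of sign included 2 members called between control tissues, both with the median over probe sets. There H2-D1 no longer passed (limma adjusted p = 0.497), and H2-K1 passed as lower in lung (-0.21). Of 859 for other named genes, 796 kept both, 4 passed newly, 51 no longer passed and 8 changed sign. All 10 lung differences kept their sign in every alternative that gave the gene a value, while the other probe set of Tapbp gave -0.13, and in liver only Psmb10 changed (0.11 without liver tumor replicate 1, and -0.33 to 0.11 over the arrays left out). The cause of the moves was not tested.

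The count of genes called in lung (58) was 11 without the filter, 114 with trend and robust eBayes, 220 with all 12 arrays in 1 fit, 1 with the replicate block, 0 without both lung arrays rich in hepatocyte RNA and 0 to 14 with 1 array left out. In liver (144) these counts were 62, 422, 653 and 0, with 94 after quantile normalization and 0 or 1 with 1 array left out. In the difference between tissues (131) the replicate block gave 14, both lung arrays left out 41, and 1 array left out 51 to 137. Testing every probe set called 10931 between control tissues in place of 6705 genes. Leaving out genes with 1 value on every array gave 71 in lung.

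With the median over probe sets, H2-K1 and H2-D1 turned to 0.017 and 0.047 in the difference between tissues and to -0.21 and -0.061 between control tissues, Psmd7 in lung to 0.22 and Psme3 in liver to -0.24. Tap1 gave no value there. Quantile normalization turned B2m to -0.025 in the difference between tissues, and B2m to 0.12 and Tap1 to -0.41 between control tissues. Without both lung arrays Tapbp became 0.055 in the difference between tissues. With 1 array left out, the difference between tissues ran from -0.071 to 0.065 for B2m, -0.44 to 0.76 for Tap1, -0.14 to 0.41 for Tap2, -0.25 to 0.42 for Psmb9 and -0.10 to 0.10 for Tapbp. Between control tissues it ran from -0.15 to 0.70 for Tap1 and -0.0051 to 0.29 for Psmb8. The change in lung ran from -0.092 to 0.063 for Psmb6 and -0.051 to 0.064 for Psmb7, and that in liver from -0.028 to 0.15 for Ewsr1.

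The replicate numbers were not taken as pairs, because no label ties a number to a mouse. The main fits between tissues thus treated lung and liver of the same mice as independent. Lung and liver arrays of the same number correlated at 0.04 to 0.13 in their deviations from the group means. Every array did correlate best with its own number in the other tissue, a hint from the data, not the design. Within a tissue, tumor-bearing and control numbers belong to different mice. With the replicate block, Psmb9 (adjusted p = 0.0304) and Psmb10 (0.0474) also passed between control tissues, Psmb7 (0.0564) no longer did, and the largest member differences, 1.68 and 1.53 for Tap1, had adjusted p of 0.591 in lung and 0.219 in liver.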
